A study of Saccharomyces cerevisiae with 18 samples.

Results

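The genes that code for the proteins of the small (40S) cytosolic ribosomal subunit of Saccharomyces cerevisiae were followed across 6 strains. Members were all rows of the deposited table whose ORF has a standard name, in the R64 annotation, that is RPS followed by a digit. This gave 56 of 6650 named ORFs, and all 56 had a value in each of the 6 columns. They code for 32 proteins, of which 24 come from a pair of paralogs (A and B) and 8 from a single gene.

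All strains were BY4741, a haploid laboratory strain derived from S288C, grown on rich medium with xylulose and harvested in log phase. At RXT3 the strains were a deletion (delRXT3), an exchange for the allele of strain T73 (T73RXT3) and an exchange for the allele of strain CLIB215 (CLIB215RXT3). At PHO23 the same 3 edits were made (delPHO23, T73PHO23 and CLIB215PHO23). By its title the series asks how natural diversity in the use of pentoses relates to histone deacetylases. Each group has 3 libraries in the labels but 1 pooled column in the table, so no value below has a replicate error and no test between strains was possible. No source used here says whether the 3 libraries of a group came from separate clones. Unedited BY4741 was not analysed here. The values are centred per ORF on a log scale, taken as log2 since no base is named, and they carry no expression level. They are relative to the other RNA in a column, so a fall of these genes and a rise of the other RNA cannot be told apart. For 3 groups the sample titles and the genotype field name different strains. Titles are followed here, and each name stands for the column so labelled.

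The edited genes were read first, as a check of the labels. PHO23 had no value in the column labelled delPHO23, and had 0.12 in delRXT3, −0.073 in T73RXT3, −0.61 in CLIB215RXT3, 0.35 in T73PHO23 and −0.88 in CLIB215PHO23. RXT3 had −0.049 in the column labelled delRXT3, where a deleted gene should give no reads. Its other values were 0.11 in T73RXT3, 0.23 in CLIB215RXT3, −0.15 in delPHO23, 0.14 in T73PHO23 and −0.36 in CLIB215PHO23. RXT3 was thus not lowest in the column labelled as its deletion, which goes against that label, and every direction drawn from that column below rests on a label that RXT3 itself does not bear out.

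The 40S subunit binds the messenger RNA and reads its codons. Its head, beak, body and platform are built from ribosomal RNA and the Rps proteins. In yeast the ribosomal protein genes are among the most heavily transcribed genes of growing cells, and their transcription follows nutrient supply through the TOR and protein kinase A pathways. Most of their promoters are bound by Rap1, which recruits Fhl1 and its coactivator Ifh1. Rxt3 and Pho23 are subunits of Rpd3L, a histone deacetylase complex that acts as a repressor at many promoters, and Rpd3 has been tied to the repression of ribosomal protein genes in starved or stressed cells.

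An upstream stretch with a match to the Rap1 core is shown for RPS7A, among the lowest members in the comparison of the PHO23 alleles. The letters CACCC, then any pair of bases, then ACA were searched on both strands of the 500 bases before each start codon. A match was found in 11 of the 56 genes (19.6%), in 18 of the 82 genes of large-subunit ribosomal proteins and in 2.21% of all 6019 protein-coding genes. The match is in capitals, read 5′ to 3′ on the strand of the gene (RefSeq, build R64).
RPS7A, chrXV:505300-505349, plus strand: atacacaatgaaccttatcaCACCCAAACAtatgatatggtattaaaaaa
The match began 474 bases before the start codon, the farthest of the 12 matches among the members (quartiles 307 and 372). RPS25B and RPS6A, also among the lowest members in that comparison, had no match. A match is a description of the letters and not a bound site.

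Paralogs differ by few coding bases, which limits how well short reads can be assigned to A or B. The last 60 coding bases are given for RPS28 and RPS29, whose A and B genes took very different courses over the strains, and for 1 pair whose genes stayed close. Capitals mark the bases that differ between the genes of a pair.
RPS28A, chrXV:648804-648863, minus strand: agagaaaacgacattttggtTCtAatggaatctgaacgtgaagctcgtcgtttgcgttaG
RPS28B, chrXII:673275-673334, plus strand: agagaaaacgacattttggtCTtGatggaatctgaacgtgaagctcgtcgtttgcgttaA
RPS29A, chrXII:898762-898821, plus strand: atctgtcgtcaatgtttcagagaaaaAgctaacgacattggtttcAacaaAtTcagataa
RPS29B, chrIV:340628-340687, minus strand: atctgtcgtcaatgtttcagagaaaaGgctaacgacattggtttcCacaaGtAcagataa
RPS18A, chrIV:1360739-1360798, plus strand: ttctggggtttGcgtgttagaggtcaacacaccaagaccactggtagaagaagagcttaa
RPS18B, chrXIII:222987-223046, minus strand: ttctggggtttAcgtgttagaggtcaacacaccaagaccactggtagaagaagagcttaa
These ends differ at 4 bases for RPS28, 4 for RPS29 and 1 for RPS18. In the 200 bases after the stop codon the A and B genes were no more alike than genes of different pairs, with a median identity of 52.5% over the 24 pairs and 52.4% over 552 A and B combinations of different pairs. The labels describe fragmented RNA selected on poly-dT beads. Where the counted reads lie, and how reads that match both paralogs were treated, are stated in no source used here, so every value of a single paralog is uncertain to that extent.

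The median of the 56 genes was above 0 in 2 strains and below it in the other 4. It was 0.27 in CLIB215PHO23 and 0.18 in delPHO23, against −0.17 in T73PHO23, −0.11 in delRXT3, −0.18 in T73RXT3 and −0.074 in CLIB215RXT3. The 82 genes of the large subunit had medians of the same sign in each column, with 0.24 in CLIB215PHO23 and 0.19 in delPHO23. In CLIB215PHO23 52 of the 56 genes were above 0 (48.2% of all complete ORFs) and in delPHO23 49 were (51.3%). In T73PHO23 53 were below 0 (43.2%). For 36 genes the highest of the 6 values was that of CLIB215PHO23, which held the highest value of 18.5% of all 4956 complete ORFs. For 18 genes it was that of delPHO23, against 19.0% of all complete ORFs. The 2 remaining genes, RPS9A and RPS29B, were highest in delRXT3 (16.8% of all complete ORFs), and none was highest in CLIB215RXT3 (14.6%), T73RXT3 (14.3%) or T73PHO23 (16.7%). The lowest value was that of T73RXT3 for 23 genes (12.3% of all complete ORFs), T73PHO23 for 17 (13.6%), delRXT3 for 10 (14.0%), CLIB215RXT3 for 4 (15.4%) and CLIB215PHO23 for 2 (23.5%), RPS9A and RPS28B. No member was lowest in delPHO23, which held the lowest value of 21.2% of all complete ORFs.

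**Figure D1:**
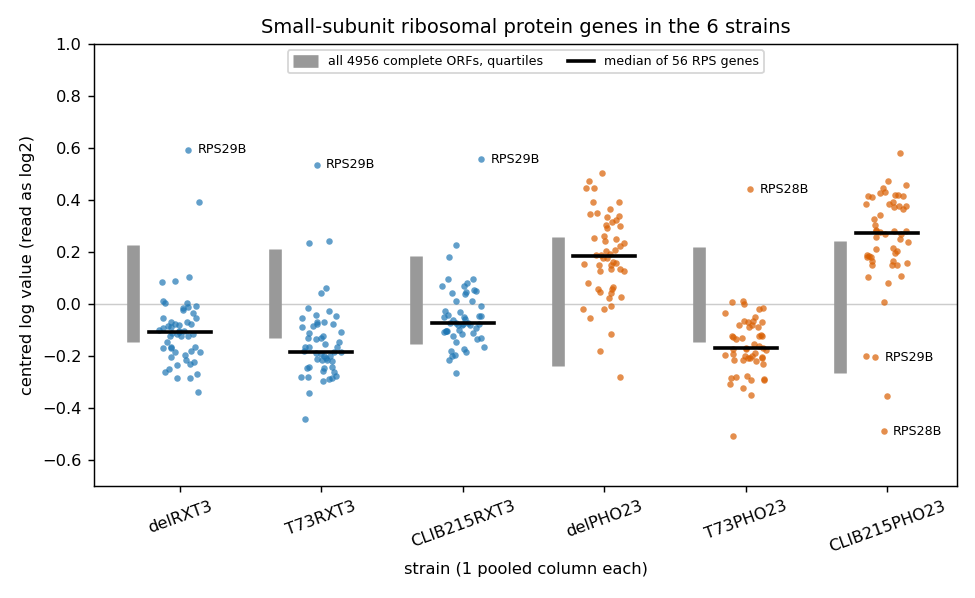
Centred log values (read as log2) of the genes in each strain, with RXT3 strains in blue and PHO23 strains in orange. Each point is a gene, black lines are medians of all 56 and grey bars span the quartiles of all 4956 complete ORFs. The medians of delPHO23 (0.18) and CLIB215PHO23 (0.27) lie above 0 and the other 4 below it, while RPS29B stands above the rest in the 3 RXT3 strains.

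Within a column the SD over the 56 genes was 0.131 to 0.207, against 0.282 to 0.422 over all complete ORFs. Over the 82 genes of the large subunit it was 0.0998 to 0.181. The span between a gene's highest and lowest column had a median of 0.57 over the 56 genes, against 0.77 over all complete ORFs. RPS2, whose protein lies at the mRNA entry side of the 40S body, ran from −0.13 in T73RXT3 to 0.16 in CLIB215PHO23, with 0.0092 in delRXT3, 0.038 in CLIB215RXT3, 0.13 in delPHO23 and 0.011 in T73PHO23. RPS3, which also lines the entry channel, had −0.12 in delRXT3, −0.29 in T73RXT3, −0.047 in CLIB215RXT3, 0.25 in delPHO23, −0.071 in T73PHO23 and 0.25 in CLIB215PHO23. Both genes have no paralog, so sharing of reads with a copy does not arise for them.

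The natural alleles of PHO23 were compared first. With the T73 allele 53 of 56 genes were lower than with the CLIB215 allele, where 45.4% of all complete ORFs were lower. The median difference, T73 minus CLIB215, was −0.44 (quartiles −0.55 and −0.29), against 0.061 over all complete ORFs and −0.41 over 82 genes of the large subunit. By a size rule of 0.5 log units, 18 genes were lower, with 15.6% of all complete ORFs lower by that much, and 1 was higher, against 19.1%. With the median of each column subtracted, 30 members in place of 19 passed 0.5 in either direction.

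Genes of the head and of the body did not stand apart in this comparison. The 22 genes of the 14 head proteins had a median of −0.45, and the 34 genes of body and platform one of −0.43. In the head, RPS25B, for a head protein that yeast can live without, had −0.29 in delRXT3, 0.043 in T73RXT3, −0.17 in CLIB215RXT3, 0.30 in delPHO23, −0.20 in T73PHO23 and 0.58 in CLIB215PHO23. Its difference between the PHO23 alleles was −0.79, and that of RPS25A −0.41.

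In the body, RPS7A differed by −0.77 and RPS7B by −0.20. RPS7B is the member closest to an edited gene, with 1.04 kb between PHO23 and its coding sequence on chromosome XIV. RPS6A, which codes for the protein phosphorylated downstream of TOR, differed by −0.75 and RPS6B by −0.39. This pair has a coding identity of 99.2%, the highest of the 24. At the upper end were RPS28B (0.93, RPS28A −0.28), RPS14B (0.12, RPS14A −0.30), RPS9A (0.063, RPS9B −0.44) and RPS19A (−0.00091, RPS19B −0.57). In each of these 4 pairs the partner was lower with the T73 allele, like most members. Among the 8 genes without a paralog all were lower with the T73 allele, with −0.45 for RPS31, whose protein is made as a fusion with ubiquitin, and −0.15 for RPS2.

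**Figure D2:**
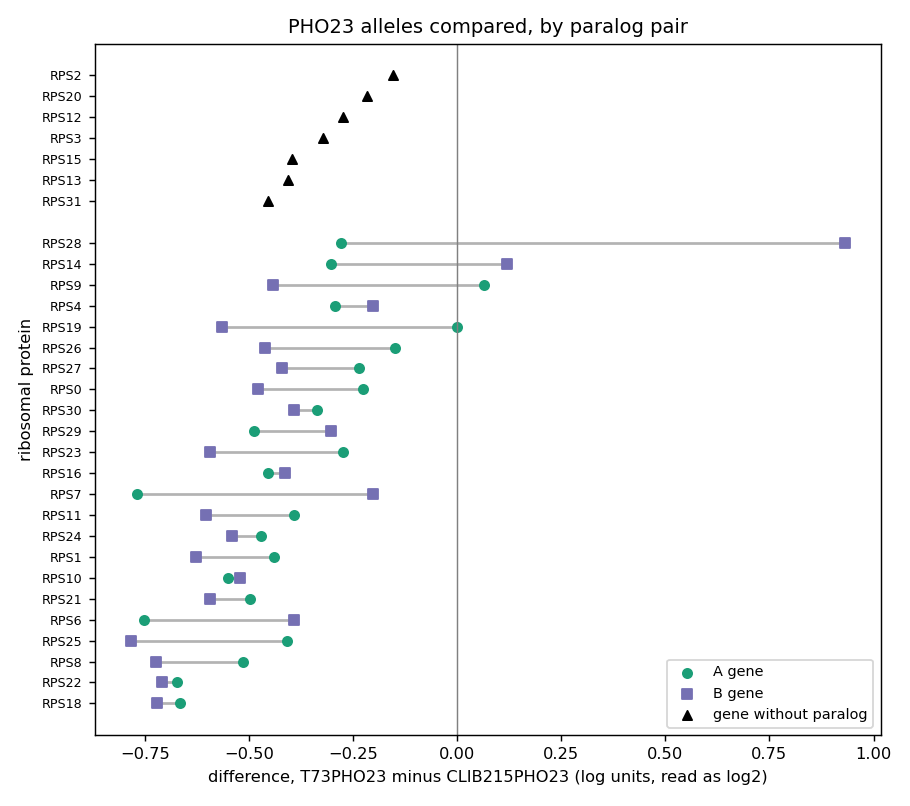
Difference between the PHO23 alleles, T73 minus CLIB215 in log units read as log2, for each gene shown. Circles are A genes and squares B genes joined by pair, and triangles are genes without a paralog. Both genes lie on the same side of 0 in all pairs shown except RPS9, RPS14 and RPS28, and RPS28B (0.93) lies apart from all others.

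The deletion of PHO23 was then set against the T73 allele. In delPHO23 55 of 56 genes were higher than in T73PHO23, where 46.9% of all complete ORFs were higher, with a median of 0.31 (quartiles 0.24 and 0.48). All complete ORFs had a median of −0.038, and the genes of the large subunit one of 0.31. By at least 0.5 log units 12 members were higher, with 15.7% of all complete ORFs, and none was lower, with 17.6%. The 56 genes thus shared a direction more than a large size.

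RPS8B led with 0.81 and RPS8A had 0.56. Also among the highest were RPS7A (0.67, RPS7B 0.26) and RPS22B (0.65, RPS22A 0.41). The lowest were RPS28A (−0.0065), RPS28B (0.0043), RPS9A (0.011, RPS9B 0.40) and RPS14A (0.059, RPS14B 0.31). RPS28A and RPS28B, whose protein sits near the mRNA exit, were thus the only pair in which neither gene differed by more than 0.01 here. The head genes had a median of 0.31 and so did those of body and platform. This comparison and the preceding one share the T73PHO23 column, so a deviation in that column enters both. The other column of each was the wider one. Over all complete ORFs the SD was 0.421 in delPHO23 and 0.422 in CLIB215PHO23, against 0.309 in T73PHO23 and 0.282 to 0.319 in the RXT3 columns.

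Between delPHO23 and CLIB215PHO23 the members differed less. The median, deleted minus CLIB215, was −0.078 (quartiles −0.21 and 0.037), against 0.015 over all complete ORFs, and 36 of 56 genes were lower, with 48.6% of all complete ORFs. RPS28B alone passed 0.5, at 0.94 (RPS28A −0.29), where 12.8% of all complete ORFs were higher by that much. RPS14B followed at 0.43 (RPS14A −0.24), then RPS19A at 0.15 (RPS19B −0.11) and RPS11A at 0.15 (RPS11B −0.13). Among the lowest were RPS10B (−0.41, RPS10A −0.25), RPS18B (−0.41, RPS18A −0.19) and RPS1B (−0.37, RPS1A 0.12). RPS10 and RPS18 are head proteins, and the head genes had a median of −0.15 against −0.051 for body and platform.

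At RXT3 the differences between strains were smaller than in the first 2 comparisons at PHO23. With the T73 allele 42 of 56 genes were lower than with the CLIB215 allele, where 48.4% of all complete ORFs were lower. The median was −0.095 against 0.015 over all complete ORFs, and no member differed by 0.5, a size that 8.13% of all complete ORFs passed downward and 11.3% upward. Among the lowest were RPS14B (−0.45, RPS14A −0.085), RPS28A (−0.38, RPS28B 0.056) and RPS9A (−0.33, RPS9B −0.064). The highest were RPS25B (0.21, RPS25A −0.087), RPS22B (0.17, RPS22A −0.11), RPS8B (0.14, RPS8A −0.015) and RPS10B (0.11, RPS10A −0.077). Each of the 4 highest was a B gene whose A partner lay below 0.

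In the column labelled delRXT3 37 genes were higher than in T73RXT3, with 51.1% of all complete ORFs, and the median was 0.063 against 0.0095. RPS9A reached 0.50 (RPS9B 0.019) as the only member past the size rule, which 10.2% of all complete ORFs passed upward. Also among the highest were RPS28A (0.38) and RPS0A (0.28, RPS0B −0.037). RPS25B (−0.33, RPS25A 0.13), RPS28B (−0.32), RPS8B (−0.29, RPS8A 0.11) and RPS19B (−0.28, RPS19A 0.20) were lowest. In 14 of 24 pairs the A and B genes had opposite signs in this comparison.

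Between the columns labelled delRXT3 and CLIB215RXT3 34 genes were lower, with 47.0% of all complete ORFs, the median was −0.041 against 0.020, and no member passed 0.5, where 9.85% of all complete ORFs were higher and 8.07% lower by that much. RPS19B (−0.38, RPS19A 0.0088), RPS29A (−0.32, RPS29B 0.037), RPS7B (−0.29, RPS7A −0.029) and RPS14B (−0.28, RPS14A −0.030) were lowest. RPS0A (0.23, RPS0B 0.016), RPS9A (0.17, RPS9B −0.045), RPS26B (0.12, RPS26A −0.17) and RPS16A (0.11, RPS16B −0.11) were highest. Of the 9 comparisons this one had the smallest share of complete ORFs past 0.5 in either direction, 17.9%.

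Between the loci, strains with the same kind of edit were compared. In the column labelled delRXT3 52 of 56 genes were lower than in delPHO23, where 47.6% of all complete ORFs were lower, with a median of −0.32. The 82 genes of the large subunit had a median of −0.30. By 0.5 or more 11 were lower, with 16.5% of all complete ORFs, and 2 were higher, with 19.2%. RPS8B (−0.74, RPS8A −0.45), RPS0B (−0.64, RPS0A −0.10) and RPS25B (−0.58, RPS25A −0.17) were among the lowest. RPS29B (0.71, RPS29A −0.41), RPS9A (0.67, RPS9B −0.50), RPS28A (0.27, RPS28B −0.53) and RPS30B (0.013, RPS30A −0.034) were highest.

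With the CLIB215 allele at RXT3 51 genes were lower than with the CLIB215 allele at PHO23, with 47.5% of all complete ORFs, and the median was −0.34. It was also −0.34 over the 82 genes of the large subunit. Past the size rule 13 were lower, with 16.3% of all complete ORFs, and 3 were higher, with 18.8%. RPS25B (−0.75, RPS25A −0.29), RPS22A (−0.64, RPS22B −0.36) and RPS26B (−0.62, RPS26A −0.051) were among the lowest. RPS29B (0.76, RPS29A −0.23), RPS28B (0.67, RPS28A −0.025), RPS9A (0.58, RPS9B −0.49) and RPS14B (0.21, RPS14A −0.32) were highest.

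The strains with the T73 allele at either locus were close for most members. The median was −0.016, with 32 genes lower and 50.8% of all complete ORFs lower. RPS29B (1.05, RPS29A −0.035, with 2.04% of all complete ORFs higher by 1 or more) and RPS22B (0.52, RPS22A −0.073) passed 0.5, a size that 10.9% of all complete ORFs passed upward and 9.42% downward, followed by RPS8B (0.37, RPS8A −0.0072) and RPS25B (0.25, RPS25A 0.030). Among the lowest were RPS14B (−0.36, RPS14A −0.10), RPS3 (−0.22) and RPS19A (−0.21, RPS19B 0.23). Each comparison between loci reuses columns of the comparisons within a locus.

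RPS29B was the member farthest from the others. Its protein is a small zinc-binding protein of the head. The gene (YDL061C, chromosome IV, 340628 to 340798) had 0.59 in delRXT3, 0.54 in T73RXT3 and 0.56 in CLIB215RXT3, against −0.12 in delPHO23, −0.51 in T73PHO23 and −0.21 in CLIB215PHO23. The RXT3 strains all lay above the PHO23 strains without overlap, which held for RPS9A as well and for 7.26% of all complete ORFs. The opposite order held for 7 members (6.70% of all complete ORFs). Averaged over the 3 columns of each locus, RPS29B was higher by 0.84 in the RXT3 strains, while the median of the 56 genes was −0.22 and 52 of them were below 0. All complete ORFs had a median of 0.020, with 47.6% below 0.

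RPS29B lies 19.1 kb from RXT3. The ORFs around it showed the same difference, a comparison made after the values were seen. From BRE1 to SIT4 (chromosome IV, 324047 to 370706, 46.7 kb) 23 of 24 ORFs with complete values, RPS29B included, were higher in the mean of the RXT3 columns, with a median difference of 1.00. Of the annotated ORFs elsewhere 52.1% were higher, with a median of 0.017. In 18 of the 24 the RXT3 columns lay above the PHO23 columns without overlap, against 6.97% of the annotated ORFs elsewhere. The 1 ORF that was lower in the mean of the RXT3 columns was SYO1, next to RPS29B, at −0.53, and KNH1 had only 0.076. In the same window of 60 kb on each side of RXT3, 32 ORFs left of BRE1 had a median of 0.012 and 7 ORFs right of SIT4 one of 0.060. The borders were set after the values were seen. VAM6, on the far side of RXT3, had a mean difference of 0.82, but was not high in all 3 RXT3 columns. It had −0.16 in delRXT3, against 1.07 in T73RXT3 and 0.64 in CLIB215RXT3. NDE2, farther out on that side, was low (−1.17), while RXT3 had 0.22 and RPL31A, between RXT3 and BRE1, −0.16.

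The 10 nearest ORFs of RPS29B, 5 on each side, had a median difference of 0.99, and RPS29B lay 0.15 below it. For the other 55 members the same median of neighbours ran from −0.34 to 0.29. RPS16B, 12.9 kb from RXT3 on the other side and outside the run of high ORFs, had −0.31, and 53 ORFs within 60 kb of PHO23 had a median of −0.11. The number of copies of this stretch in the strains was not measured, and its part in the values of RPS29B was not tested. Within a locus RPS29B did not stand apart: it differed by −0.30 between the PHO23 alleles, by 0.39 between delPHO23 and T73PHO23, and by at most 0.057 among the RXT3 strains.

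**Figure D3:**
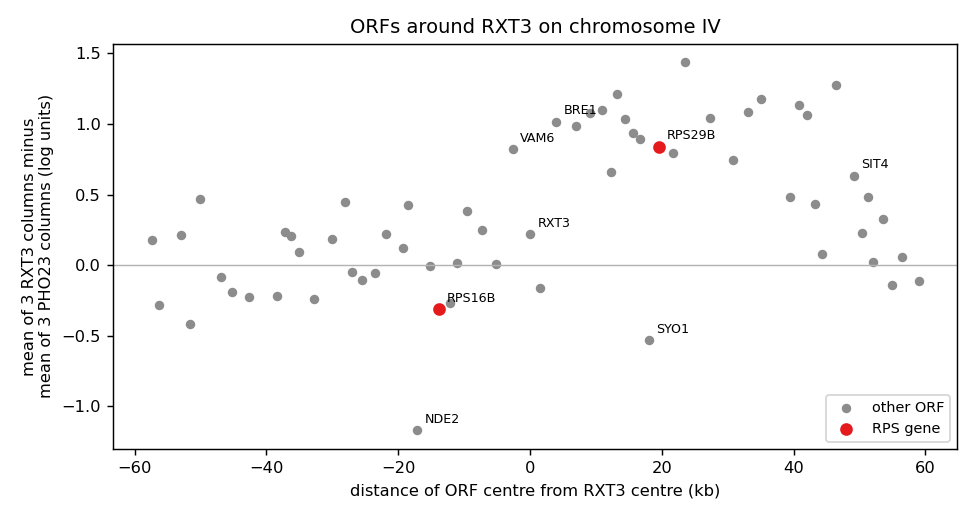
Mean of the 3 RXT3 columns minus mean of the 3 PHO23 columns, in log units read as log2, for ORFs with complete values by distance from RXT3 in kb. Red points are RPS29B (0.84) and RPS16B (−0.31). The ORFs from BRE1 to SIT4 have a median of 1.00, with SYO1 at −0.53. The 32 ORFs left of BRE1 have a median of 0.012, with VAM6 at 0.82 and NDE2 at −1.17.

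Other members also left the common course, measured as the root mean square difference from the median of the other 55 genes over the 6 columns. This distance had a median of 0.10 and was 0.56 for RPS29B, 0.46 for RPS28B, 0.40 for RPS9A and 0.24 for RPS14B. RPS28B (YLR264W, chromosome XII, 673131 to 673334) is known for the decay of its own mRNA when Rps28 is in excess, through Edc3. It had −0.081 in delRXT3, 0.23 in T73RXT3, 0.18 in CLIB215RXT3, 0.44 in delPHO23, 0.44 in T73PHO23 and −0.49 in CLIB215PHO23. It was thus low in the strain where most members were highest. RPS28A had 0.090, −0.30, 0.080, −0.18, −0.17 and 0.11 in the same order of strains, so that the genes lay on opposite sides of 0 in all strains but CLIB215RXT3, where both were above it.

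RPS9A (YPL081W, chromosome XVI, 404950 to 406044) codes for a body protein that bears on the accuracy of decoding. It had 0.39 in delRXT3, −0.11 in T73RXT3, 0.23 in CLIB215RXT3, −0.28 in delPHO23, −0.29 in T73PHO23 and −0.36 in CLIB215PHO23. RPS9B followed the common course, with −0.17, −0.19, −0.12, 0.33, −0.071 and 0.37. The neighbours of RPS9A had a median difference of 0.12 between the loci, where RPS9A had 0.48.

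RPS14B (YJL191W, chromosome X, 73787 to 74611) codes for a platform protein, and the splicing of its transcript is known to be repressed by Rps14 itself. It had −0.27 in delRXT3, −0.44 in T73RXT3, 0.0094 in CLIB215RXT3, 0.22 in delPHO23, −0.083 in T73PHO23 and −0.20 in CLIB215PHO23. It lay farthest from the median of the members in CLIB215PHO23, where that median was 0.27 and RPS14A had 0.24. In T73RXT3, where the median was −0.18, it was also the lowest of the 56 genes. None of these single-gene differences has a replicate check.

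**Figure D4:**
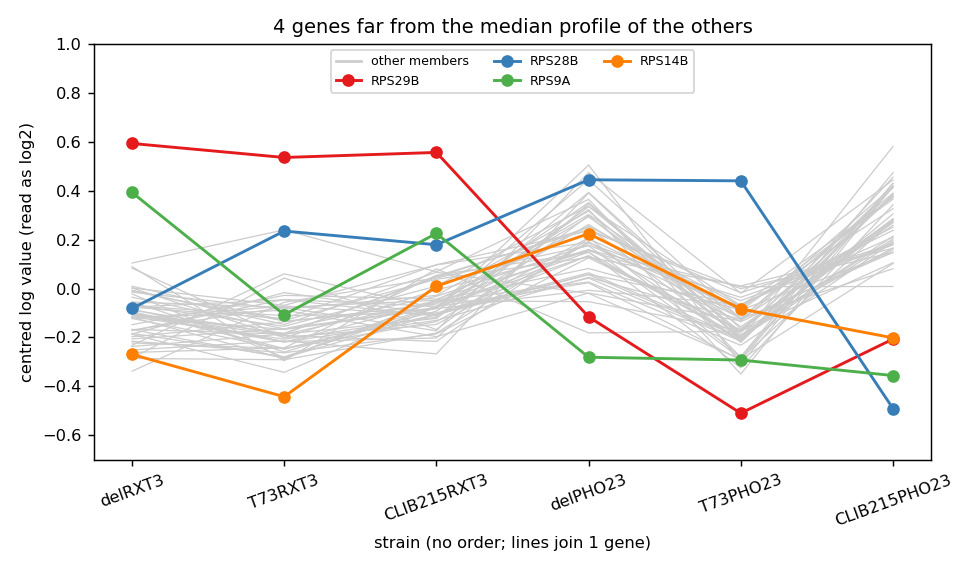
Centred log values (read as log2) of 4 genes far from the median of the other members, in color, and of other members in grey. Lines join the values of 1 gene over the strains, which have no order. RPS28B lies at −0.49 in CLIB215PHO23, where the median of the members was 0.27, and RPS29B lies between 0.54 and 0.59 in the 3 RXT3 strains.

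If the values are centred per ORF, a difference between A and B in a single column has no meaning. Paralogs were thus compared by how A minus B varied over the columns. The SD of A minus B over the 6 columns had a median of 0.17 over the 24 pairs (0.066 to 0.60), and of 0.16 over 1516 combinations of genes for different proteins. By this measure the paralogs of a pair were no closer to each other than members in general. Among the pairs farthest apart were RPS29 (0.60), RPS9 (0.52), RPS28 (0.50), RPS14 (0.25) and RPS19 (0.24). The closest were RPS21 (0.066), RPS30 (0.089), RPS4 (0.091) and RPS18 (0.092). For RPS29, A minus B changed by −1.12 to −0.99 in the comparisons between loci and by −0.35 to −0.039 in those within a locus. The ORFs around RPS29B showed its difference between the loci as well, as given above.

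Of the 24 pairs, 9 code for identical proteins. Among the 6 pairs farthest apart none does, and RPS19 has a protein identity of 99.3%. Coding identity ran from 84.3% (RPS27) to 99.2% (RPS6). The 9 pairs with a coding identity of at least 95% include RPS19 at the wide end and RPS30 and RPS4 at the close end. Over the 24 pairs Spearman's rho between coding identity and separation was −0.32, a description across pairs that share the same 6 columns. RPS8A and RPS8B share an unbroken run of 465 coding bases, the longest of all pairs, and had a separation of 0.16.

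**Figure D5:**
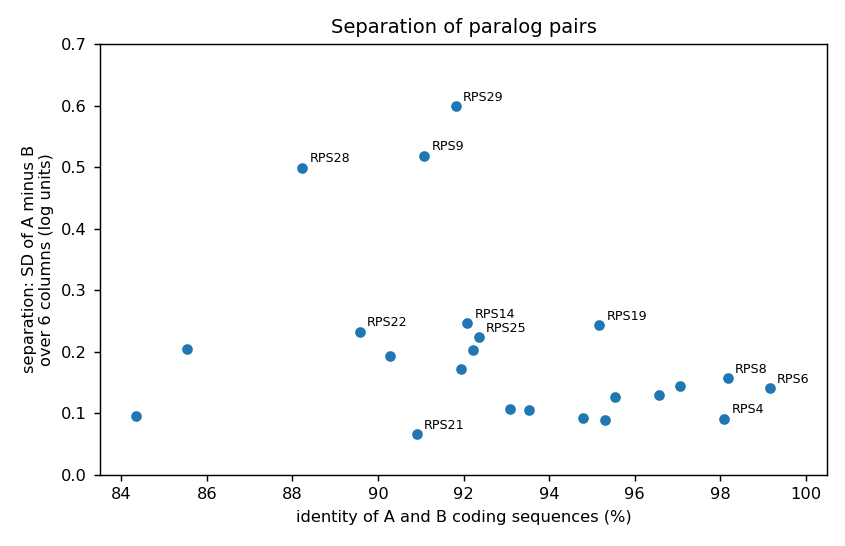
Separation of the A and B genes (SD of A minus B over the 6 columns, log units) against the identity of their coding sequences in percent, 1 point for each pair shown. RPS29, RPS9 and RPS28 lie at 0.50 to 0.60, and the others shown at 0.25 or less.

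Introns, which are common in ribosomal protein genes of yeast and rare elsewhere, did not divide the members. The 36 genes with an intron in the coding sequence had a median of −0.45 between the PHO23 alleles and the 20 without one had −0.42. Between delPHO23 and T73PHO23 the medians were 0.30 and 0.33, and between delRXT3 and delPHO23 −0.31 and −0.35. The 11 genes with a match to the Rap1 core had a median of −0.55 between the PHO23 alleles, and the 45 others −0.41. For delPHO23 minus T73PHO23 these medians were both 0.31.

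The motifs of ribosome biogenesis genes were also counted in the same windows and on both strands. GATGAG, the core of the PAC element, was found before 21.4% of the members and before 28.2% of all protein-coding genes. AAAAATTTT, the core of the RRPE element, was found before 5.36% and 9.44%. No match of one motif overlapped a match of another in these windows.

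Genes that act on the 40S subunit were read beside the members from a list of 14 genes for bound proteins and dedicated chaperones. Between the PHO23 alleles 11 of 14 were lower with T73, with a median of −0.33, and 4 passed 0.5. Of all complete ORFs 45.4% were lower and 15.6% by at least 0.5, with a median of 0.061. The 4 past 0.5 included TSR2 (−1.25), the chaperone of Rps26, and TSR4 (−1.08), the chaperone of Rps2. The others were LTV1 (−0.90), a 40S assembly factor, and YAR1 (−0.71), the chaperone of Rps3. The genes of the clients named had −0.15 for RPS26A, −0.46 for RPS26B, −0.15 for RPS2 and −0.32 for RPS3. The chaperones were named for passing 0.5 and these clients were not, so their sizes cannot be set against each other. In delPHO23 against T73PHO23 12 of 14 were higher, with a median of 0.32, where 46.9% of all complete ORFs were higher. TSR2 reached 1.80, TSR4 1.28, LTV1 1.22, SRO9 1.04, YAR1 0.75 and ASC1, for the scaffold protein bound to the 40S head, 0.52, while GCN1 had −0.60. By at least 0.5, 15.7% of all complete ORFs were higher and 17.6% lower.

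In the other comparisons chaperones and bound proteins past 0.5 were as follows. Between delPHO23 and CLIB215PHO23 SRO9 had 1.15, HRR25 0.57 and TSR2 0.55. Between the RXT3 alleles, T73 minus CLIB215, LTV1 had 0.92 and YAR1 0.68. LTV1 (−0.61) and TSR4 (−0.67) were lower in delRXT3 than in T73RXT3, and TSR4 was lower (−0.54) and ENP1 higher (0.59) than in CLIB215RXT3. From delPHO23 to delRXT3 the differences were −1.42 for LTV1, −1.27 for TSR2, −0.97 for TSR4, −0.85 for SRO9, −0.65 for YAR1, −0.51 for ENP1 and 0.51 for GCN1. Across the CLIB215 alleles, RXT3 minus PHO23, they were −1.41 for LTV1, −0.96 for YAR1 and −0.94 for ENP1. Across the T73 alleles they were 0.98 for TSR4, 0.86 for TSR2, 0.53 for SRO9 and −0.55 for ENP1. In the order of these comparisons, 23.6%, 19.5%, 21.6%, 17.9%, 35.8%, 35.0% and 20.3% of all complete ORFs passed 0.5 in either direction.

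Of 16 regulators listed, 13 had complete values, and IFH1, CRF1 and TOD6 did not. Between the PHO23 alleles 11 of 13 were higher with T73, with a median of 0.34, where 54.6% of all complete ORFs were higher. By at least 0.5, 2 of 13 were higher, a share near or below the 19.1% of all complete ORFs. They were TOR2 (0.63), a kinase of the TOR complexes, and SFP1 (0.51), an activator of ribosomal genes. In delPHO23 against T73PHO23 8 of 13 were lower, with a median of −0.22, a share near the 53.1% of all complete ORFs that were lower. RAP1 had −0.91 and RPD3, the deacetylase itself, −0.55, while TOR1 had 1.48. Of all complete ORFs 17.6% were lower and 15.7% higher by at least 0.5. In delPHO23 against CLIB215PHO23 TOR1 had 1.37 and RAP1 −0.53.

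At RXT3, SFP1 stood at −0.41 in delRXT3, 0.82 in T73RXT3 and 0.32 in CLIB215RXT3. It differed by −1.23 between the first 2, by −0.73 between delRXT3 and CLIB215RXT3 and by 0.50 between the alleles. FHL1 was higher in delRXT3 by 0.65 than in T73RXT3 and by 0.71 than in CLIB215RXT3, UME1, an Rpd3-complex subunit gene, by 0.56 and 0.52. STB3, which codes for a binder of the RRPE element, was lower by −0.76 with T73 than with CLIB215 and by −0.62 in delRXT3 than with CLIB215. The medians of the members in these 3 comparisons stayed between −0.095 and 0.063. Of all complete ORFs 21.6% passed 0.5 in either direction between delRXT3 and T73RXT3, 17.9% between delRXT3 and CLIB215RXT3 and 19.5% between the alleles.

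Between the loci, delRXT3 minus delPHO23 was 0.92 for RAP1, 0.66 for ABF1, 0.66 for RPD3, 0.61 for UME1, −0.71 for TOR1 and −0.83 for SCH9, a kinase gene. For the CLIB215 alleles, RXT3 minus PHO23, it was 1.03 for TOR1, 0.68 for ABF1 and 0.62 for SFP1. For the T73 alleles it was 0.72 for TOR1, 0.61 for SFP1, −0.53 for TOR2 and −0.79 for STB3. These are values of mRNA in single pooled columns and say nothing of the activity of the proteins. Of all complete ORFs 35.8% passed 0.5 in either direction between the deletions, 35.0% between the CLIB215 alleles and 20.3% between the T73 alleles.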

How the data were processed

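The authors deposited 1 table with a column of centred log values per group, read here as log2, for 18 libraries in 6 groups of 3. No source used here gives the base, the normalization, the centring or the counting of molecules. Per the submitters' processing notes the tools included Bowtie and the genome was R64. RNA was fragmented, selected on poly-dT beads and reverse transcribed with barcoded primers that carry UMIs, per the labels' protocols. Columns were matched to groups by the sample titles, which the genotype field contradicts for 3 groups, and treated as pooled values. The table has no counts, so depth is unknown and no interval can be given. ORFs were matched to the RefSeq R64 annotation (5962 of 6650), and 4956 had a value in all 6 columns. Differences between columns, their medians and counts past 0.5 log units were computed with Python 3.11.15, pandas 2.3.3 and numpy 2.4.6, without a test because the table has no column per replicate. The difference and median step was tested on simulated data. Coding sequences were read from the R64 genome and aligned globally with Biopython 1.88. The members and lists, the size rule and the head and body grouping were chosen with earlier results of these data known. Named genes are the 4 highest and 4 lowest members of each comparison with their paralogs, the 6 most and 4 least separate pairs, and list genes past 0.5. Genes of the chromosome IV region and those given as examples of single genes were named after their values were seen. Column naming, members entering, centring, paralog averaging and near-identical paralogs were varied. Some members enter the counts and medians but their own results are not reported here and they are left out of the figures.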

Additional observations from a re-analysis of the deposited data

How the results depend on the processing

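Naming columns by the genotype field changed most medians. It gives the name delPHO23 to a column in which PHO23 has a value of −0.073, while PHO23 has none in the column titled delPHO23. They became −0.016 for delPHO23 minus T73PHO23 (sign turned, 32 genes below 0, 2 past 0.5) and −0.44 for delPHO23 minus CLIB215PHO23 (25 past 0.5). At RXT3 they became −0.22 for T73 minus CLIB215 (9 past 0.5), −0.041 for delRXT3 minus T73RXT3 (sign turned, 34 below 0, 0 past 0.5) and −0.32 for delRXT3 minus CLIB215RXT3 (52 below 0, 13 past 0.5). Between loci they became 0.063 for the deletions (sign turned, 19 below 0, 1 past 0.5), 0.073 for the T73 alleles (sign turned, 13 below 0) and −0.078 for the CLIB215 alleles (1 past 0.5). The comparison of the PHO23 alleles uses columns that both fields name alike.

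Subtracting column medians gave 30 genes past 0.5 between the PHO23 alleles, 0 below 0 for delPHO23 minus T73PHO23, 0 past 0.5 for delRXT3 minus T73RXT3, and medians of −0.063 for delRXT3 minus CLIB215RXT3 and −0.010 for the T73 alleles between loci. With 1 value per protein only 32 values enter. The numbers below 0 were then 31 (PHO23 alleles), 21 (delPHO23 minus CLIB215PHO23), 25 (RXT3 alleles), 10 (delRXT3 minus T73RXT3), 30 (deletions), 16 (T73 alleles) and 29 (CLIB215 alleles). Past 0.5 were 10 for the PHO23 alleles, 4 for delPHO23 minus T73PHO23, 0 for delPHO23 minus CLIB215PHO23, 0 for delRXT3 minus T73RXT3, 1 for the deletions, 1 for the T73 alleles and 4 for the CLIB215 alleles. Medians moved to 0.036 for delRXT3 minus T73RXT3 and −0.0053 for the T73 alleles. Without the 18 genes of pairs with a coding identity of at least 95%, 35 were below 0 and 11 past 0.5 between the PHO23 alleles, 7 were past 0.5 for delPHO23 minus T73PHO23, and the median of the T73 alleles was −0.047. At a size of 1 unit 1 gene passed for the PHO23 alleles, 1 for the T73 and 1 for the CLIB215 alleles between loci, and 0 for the 4 others that had any past 0.5. Leaving out RPS29B, chosen after seeing the data, moved none of the 3 medians between loci by over 1.5 times, nor did entering members with values in both columns, which are the same 56 genes. No replicate could be left out. No paired analysis was possible because the columns carry no replicate numbers.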
